A study of Mus musculus with 8 samples.

Results

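The genes described here encode the initiation and elongation factors of cytosolic translation and the kinases, inhibitors and methyltransferases that act on them. They were chosen by name, as every gene in the array annotation whose symbol starts with Eif1, Eif2, Eif3, Eif4, Eif5, Eif6, Eef1 or Eef2. Each gene was represented by the probe set, a group of short probes for a transcript region, that names it alone and has the highest mean over the 8 arrays. The rule found 52 genes among the 12393 genes measured this way, with 118 probe sets in all. A further 4 genes, Eif4a3, Eef1g, Eif3j1 and Eif3j2, were named only by probe sets that name several genes and were not used. The cap scaffold Eif4g1 and the eIF2 alpha subunit gene Eif2s1 were not analysed here.

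RNA came from splenic CD4 T cells, purified by FACS, of female mice 8 to 12 weeks old. The animals were C57BL/6 wild type (WT) or carried a knockout of the aryl hydrocarbon receptor gene Ahr (KO), a ligand-activated transcription factor, backcrossed to C57BL/6. Each animal received an intraperitoneal injection, in corn oil, of DMSO or of 10 µg/kg TCDD, a dioxin that activates this receptor, and was killed 24 h later. The 4 groups (WT DMSO, WT TCDD, KO DMSO, KO TCDD) had 2 arrays each, labelled as biological duplicates, with the RNA of 4 animals pooled on every array. No label limits the knockout to T cells, and pooling hides the spread between animals.

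Translation begins when eIF2 brings the initiator tRNA to the small ribosomal subunit, eIF3 holds that complex together, and eIF4F recruits it to the capped end of the mRNA. eIF1, eIF1A and eIF5 govern the choice of the start codon, and eIF5B joins the large subunit. eEF1A then delivers aminoacyl tRNAs and eEF2 moves the ribosome along. In T cells this machinery is known for its increase when resting cells are activated, and its main controls are the phosphorylation of eIF2 and the release of eIF4E from its binding proteins.

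All levels below are the authors' log2 values after RMA, and a difference is KO minus WT unless said otherwise. A difference was called where limma's Benjamini-Hochberg adjusted p over all 22626 probe sets was under 0.05, with 4 arrays per genotype. The array medians lay between 6.08 and 6.15, and the mean level of the 52 genes was 8.58 to 8.86 on the KO arrays and 8.61 to 8.92 on the WT arrays. Of the CD4 T cell markers (Cd4, Cd3e, Cd3d, Cd3g, Cd28 and Cd5; Lck was not analysed here) 0 of 6 were called, and their mean level was 9.43 to 9.59 in KO and 9.32 to 9.71 in WT. Of 13 myeloid and dendritic markers 8 were called higher in KO. The mean level of all 13 was 7.43 to 7.99 in KO against 6.51 to 6.56 in WT. Those called differed by 0.54 (C1qc) to 2.97 (Irf8), and the others by -0.07 (Cd14) to 0.75 (C1qa). Among their defining genes Csf1r averaged 9.82 ± 0.34 in KO and 8.55 ± 0.34 in WT, and Itgam 4.55 ± 0.08 and 4.47 ± 0.08 (SD, n = 4). Of 5 CD8 and NK markers 1, Nkg7, was called higher, and of 5 B cell, 2 red cell and 3 sex-linked markers 0 were called. The part of these other cells in the differences below was not tested, and in such bulk RNA a change in cell composition and a change in RNA per cell cannot be told apart. For WT TCDD replicate 1 the description field speaks of KO animals, while title, source and strain all give WT. The 2 Ahr probe sets were not lower in KO, at 6.49 to 7.08 and 6.35 to 6.86 against 6.11 to 6.29 and 6.31 to 6.64 in WT. The sources used here do not place these probes within or outside the deleted segment, so they did not check the labels.

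Against WT, 3 of the 52 genes passed the test in KO cells. Eif3e, a subunit of the eIF3 scaffold, and Eif4ebp2, a binding protein that holds eIF4E off the cap complex, fell, and Eif2b1, the alpha subunit of the eIF2B exchange factor, rose. That is 5.77% of these genes, beside 3.24% of all 12393 genes and 2.79% of all probe sets. The 1 gene higher in KO stands beside 1.90% of all genes called higher, and the 2 lower beside 1.33% called lower. Without adjustment, p was under 0.05 for 19 of the 52 genes, 36.5%, beside 22.2% of all genes. The shares over all genes include many dim genes, while 6 of the 52 had a mean level under the median of all probe sets, 6.13. With probe sets under that median left out, 5 of 46 genes were called, beside 7.89% of all genes. The median difference over the 52 genes was 0.02, beside 0.005 over all genes, with 27 genes higher, 24 lower and Eef1b2 at 0.00. The levels of the KO and WT arrays did not overlap for 3 genes with KO above (Eif2b1, Eif3k and Eif3i; 6.28% of all genes) and for 5 with KO below (Eif3e, Eif4ebp2, Eif5b, Eif1ax and Eif2ak3; 6.71% of all genes). The 3 calls were close to the threshold, with adjusted p of 0.0353, 0.04997 and 0.0452 in limma for Eif3e, Eif4ebp2 and Eif2b1. The model of 4 group means, which takes the spread within each group, called 0 of the 52 genes, beside 0.807% of all genes.

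**Figure D1:**
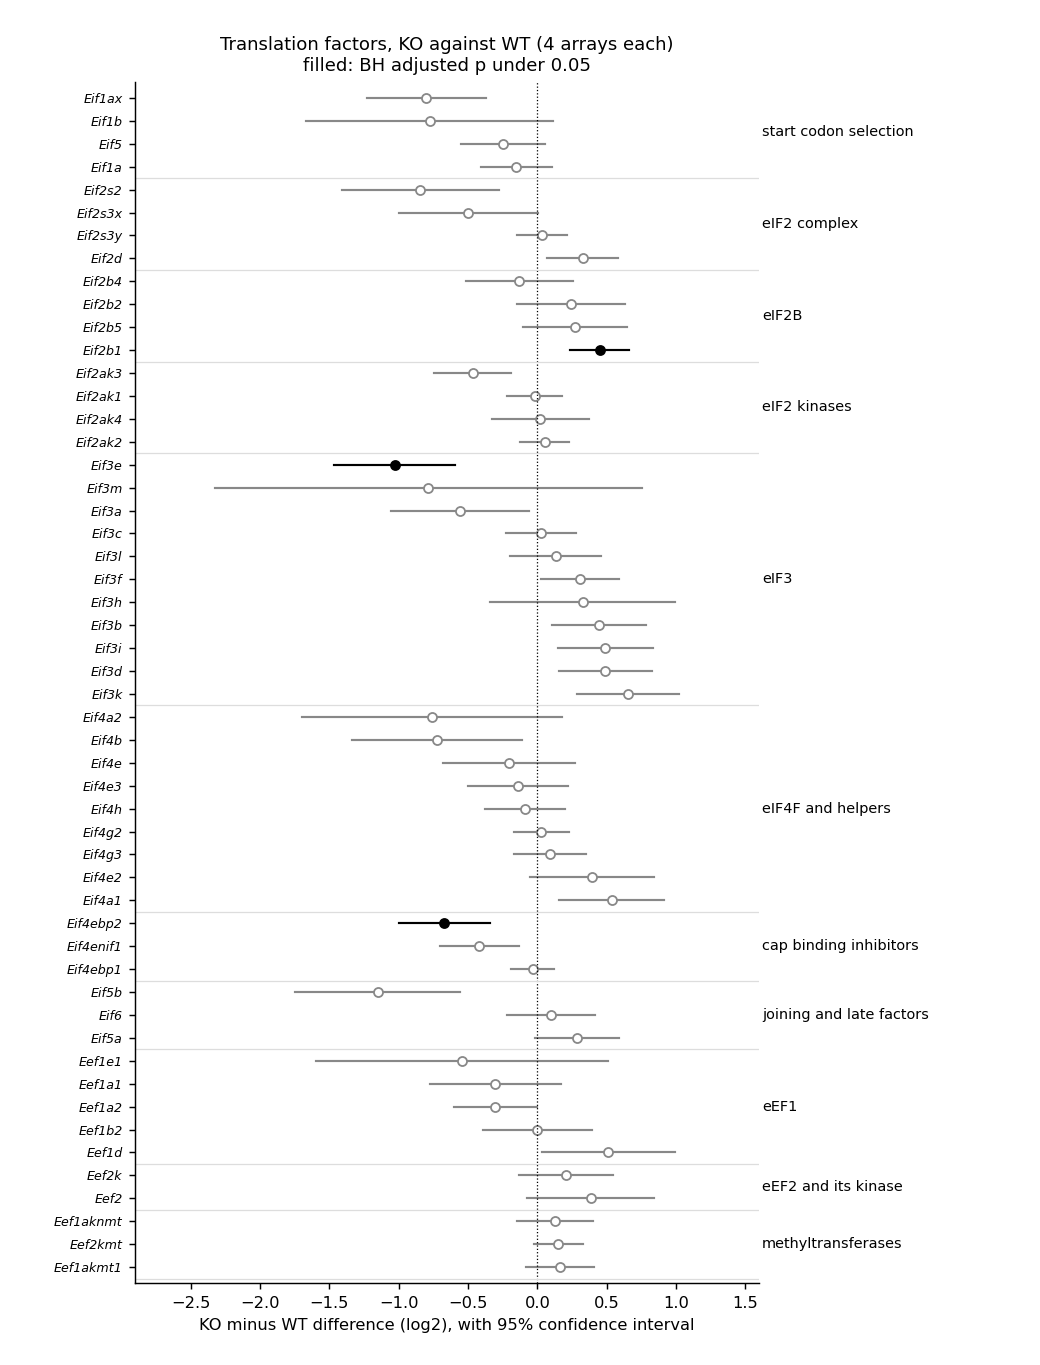
KO minus WT difference on the log2 scale for each of the 52 genes, grouped by role, with its 95% confidence interval from limma (4 arrays per genotype). Filled points mark the 3 genes called, Eif3e at -1.03, Eif4ebp2 at -0.67 and Eif2b1 at 0.45, and open points the 49 that were not.

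eIF3 is the largest initiation factor, a ring of many subunits on the small ribosomal subunit, and 11 of its genes were measured. Of these 1 was called lower, Eif3e, 0 were called higher, and 8 had a positive and 3 a negative difference, with a median of 0.31. Without adjustment, p was under 0.05 for 7 of the 11, beside 22.2% of all genes. Eif3e stood at 12.06 and 12.69 in WT DMSO, 12.32 and 12.81 in WT TCDD, 11.63 and 11.60 in KO DMSO, and 11.05 and 11.48 in KO TCDD. Every KO array was below every WT array, with means of 11.44 ± 0.27 in KO and 12.47 ± 0.34 in WT (SD, n = 4). The difference was -1.03 (SE 0.19, adjusted p = 0.0353), so the WT level was 2.04-fold the KO level. By the array maker's naming of this probe set, some of its probes can match other transcripts. The call was lost without KO DMSO replicate 2 (-1.08, adjusted p = 0.0558), KO TCDD replicate 1 (-0.90, 0.0894), KO TCDD replicate 2 (-1.04, 0.105), WT DMSO replicate 2 (-0.96, 0.0939) or WT TCDD replicate 2 (-0.92, 0.0844).

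Other eIF3 subunits had positive differences that did not pass. Eif3k, a peripheral subunit, stood at 9.67 and 9.84 in WT DMSO, 9.66 and 9.30 in WT TCDD, 10.06 and 10.00 in KO DMSO, and 10.52 and 10.51 in KO TCDD. All 4 KO arrays were above all 4 WT arrays, and the difference was 0.66 (SE 0.16, adjusted p = 0.0693). Values of 2 subunits of the eIF3b-g-i module were also higher in KO. Eif3i stood at 11.12 and 11.11 in WT DMSO, 11.11 and 10.60 in WT TCDD, 11.54 and 11.22 in KO DMSO, and 11.72 and 11.42 in KO TCDD, with no overlap and a difference of 0.49 (SE 0.15, adjusted p = 0.114). Eif3b stood at 8.70 and 8.54 in WT DMSO, 8.60 and 8.41 in WT TCDD, 9.12 and 8.55 in KO DMSO, and 9.20 and 9.15 in KO TCDD, where KO DMSO replicate 2 fell among the WT arrays, with a difference of 0.44 (SE 0.15, adjusted p = 0.141). Eif3d, which contacts the mRNA and can bind its cap, stood at 9.08 and 8.90 in WT DMSO, 8.89 and 8.71 in WT TCDD, 9.49 and 8.98 in KO DMSO, and 9.65 and 9.42 in KO TCDD, with a difference of 0.49 (SE 0.15, adjusted p = 0.109). Again KO DMSO replicate 2 lay within the WT range. These 4 genes, and Eif3a, were given here with every array's value after those values were seen.

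At the low end of eIF3, Eif3m stood at 7.40 and 8.75 in WT DMSO, 6.12 and 9.58 in WT TCDD, 8.00 and 6.83 in KO DMSO, and 6.98 and 6.90 in KO TCDD. Its WT arrays spanned both the lowest and the highest of the 8 values, and the difference was -0.79 (SE 0.68, adjusted p = 0.576). The core subunit Eif3a stood at 9.90 and 10.22 in WT DMSO, 9.37 and 10.24 in WT TCDD, 9.46 and 9.44 in KO DMSO, and 8.95 and 9.65 in KO TCDD, with a difference of -0.56 (SE 0.22, adjusted p = 0.193). The other 4 subunits, Eif3c, Eif3f, Eif3h and Eif3l, differed by 0.03, 0.31, 0.33 and 0.13, and 0 of them passed.

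The 4 genes of start codon selection all had negative differences, with a median of -0.51, and 0 were called by their chosen probe sets. Eif1ax, which encodes the scanning factor eIF1A, stood at 9.49 and 9.77 in WT DMSO, 9.43 and 10.08 in WT TCDD, 9.27 and 8.54 in KO DMSO, and 8.98 and 8.77 in KO TCDD. All 4 KO arrays lay below all 4 WT arrays, and the difference was -0.80 (SE 0.19, adjusted p = 0.0605). Eif1b, a close relative of the start codon gatekeeper Eif1, stood at 7.27 and 8.36 in WT DMSO, 6.91 and 8.67 in WT TCDD, 7.55 and 6.66 in KO DMSO, and 7.03 and 6.86 in KO TCDD. Both WT arrays numbered 2 were above all KO arrays, while those numbered 1 lay within the KO range, and the difference was -0.78 (SE 0.39, adjusted p = 0.309). Eif1a differed by -0.15 (adjusted p = 0.502).

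Eif5 encodes the factor that makes eIF2 hydrolyse its GTP at the start codon, and its probe sets differed in size of change. The chosen probe set stood at 11.65 and 11.32 in WT DMSO, 11.63 and 11.40 in WT TCDD, 11.60 and 11.09 in KO DMSO, and 11.19 and 11.14 in KO TCDD, with a difference of -0.25 (SE 0.13, adjusted p = 0.348). A probe set with a mean level of 8.88 was lower in KO by 1.42 (KO minus WT -1.42, SE 0.15, adjusted p = 0.00788). It stood at 9.32 and 9.90 in WT DMSO, 9.38 and 9.73 in WT TCDD, 8.10 and 8.00 in KO DMSO, and 8.46 and 8.11 in KO TCDD, so the lowest WT array, 9.32, was above the highest KO array, 8.46. A probe set with a mean level of 8.37 was also called (-1.03, adjusted p = 0.0444), and one of mean level 5.87 was not (-1.39, 0.130). The call at mean level 8.37 held in 8 of 20 alternatives, and of the 8 single arrays left out only without KO DMSO replicate 1 or WT TCDD replicate 1, with adjusted p of 0.0546 to 0.126 for the other 6. The -1.42 value had the lowest adjusted p of the 118 probe sets, and it stayed called whichever single array was left out, at -1.51 to -1.31. It was not called without both WT arrays numbered 2 (-1.18, adjusted p = 0.0522). These further probe sets were picked out with their values known, and the sources used here do not place the probes along the transcript.

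**Figure D2:**
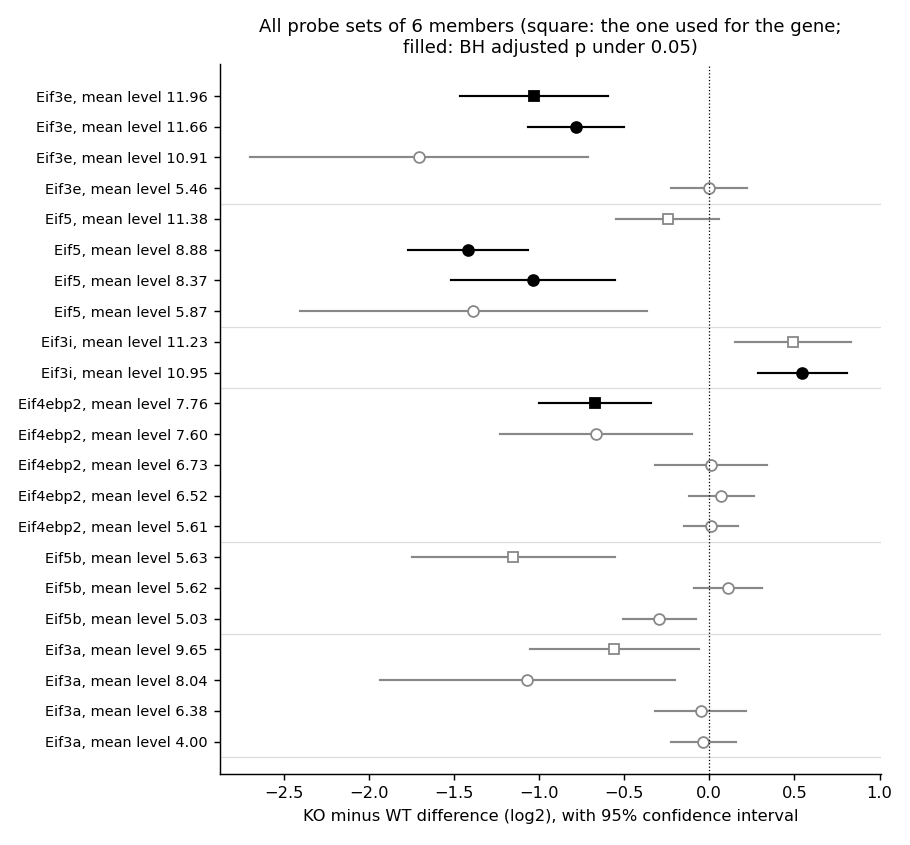
KO minus WT difference on the log2 scale, with its 95% confidence interval, for every probe set of 6 genes, each labelled by its mean level over 8 arrays. Squares mark the probe set used for the gene and filled marks those called; the Eif5 probe sets range from -1.42 to -0.25 and those of Eif4ebp2 from -0.67 to 0.07.

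Over all 118 probe sets, 7 were called (5.93%, beside 2.79% of all probe sets), 2 higher and 5 lower, from 5 genes. Eif3e gave 2 of them, since its probe set of mean level 11.66 differed by -0.78 (adjusted p = 0.0226), another by -1.71 (0.0747), and a dim one of mean level 5.46 by 0.00. By the array maker's naming, some probes of the one of mean level 11.66 can also match other transcripts. The Eif3e probe set of mean level 11.66 was not called without KO TCDD replicate 1, KO TCDD replicate 2, WT DMSO replicate 2 or WT TCDD replicate 2 (adjusted p = 0.0547 to 0.0668). Eif3i gave 1, a second probe set at 0.55 (adjusted p = 0.0458). It kept its call in 7 of 20 alternatives, and of the 8 single arrays left out only without KO DMSO replicate 2, with adjusted p of 0.0520 to 0.136 for the other 7. Of the 30 genes with more than 1 probe set, 14 had all of them on the same side of 0. For Eif5, the choice of the highest mean left the called ones out. When a gene's probe sets were averaged in place of taking the highest, Eif5 was called at -1.02 (adjusted p = 0.0220), and Eif4ebp2 was not (-0.25, 0.153).

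eIF2 is the carrier of the initiator tRNA, and 0 of the 4 genes in this group were called. Eif2s2, the beta subunit, stood at 9.86 and 10.65 in WT DMSO, 9.58 and 10.49 in WT TCDD, 9.66 and 9.11 in KO DMSO, and 9.05 and 9.38 in KO TCDD. Only WT TCDD replicate 1 came within the KO range, below KO DMSO replicate 1, and the difference was -0.85 (SE 0.25, adjusted p = 0.103). The gamma subunit has an X-linked and a Y-linked copy in mice. Eif2s3x stood at 9.25 and 9.68 in WT DMSO, 9.31 and 10.15 in WT TCDD, 9.53 and 8.97 in KO DMSO, and 8.85 and 9.05 in KO TCDD, overlapping between genotypes, with a difference of -0.50 (SE 0.22, adjusted p = 0.248). Eif2s3y lay between 3.81 and 4.03 on all 8 arrays of these female animals and differed by 0.04 (SE 0.08, adjusted p = 0.851). Eif2d, which can deliver tRNA without GTP, differed by 0.33 (adjusted p = 0.150).

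eIF2B recharges eIF2 with GTP and is the step that phosphorylated eIF2 blocks, and 1 of its 4 measured subunit genes rose. Eif2b1 stood at 7.92 and 7.95 in WT DMSO, 7.58 and 7.86 in WT TCDD, 8.32 and 8.27 in KO DMSO, and 8.30 and 8.22 in KO TCDD. The KO arrays lay between 8.22 and 8.32, above every WT array, with means of 8.28 ± 0.04 in KO and 7.83 ± 0.17 in WT (SD, n = 4). The difference was 0.45 (SE 0.09, adjusted p = 0.0452), a 1.37-fold higher level in KO. Of the 8 single arrays left out, the call held only without WT TCDD replicate 1 (0.37, adjusted p = 0.0445). It was lost without KO DMSO 1 (0.44, 0.0746), KO DMSO 2 (0.45, 0.0750), KO TCDD 1 (0.44, 0.129), KO TCDD 2 (0.47, 0.119), WT DMSO 1 (0.48, 0.0664), WT DMSO 2 (0.49, 0.0833) or WT TCDD 2 (0.46, 0.102). Eif2b5, the catalytic subunit, stood at 7.28 and 7.03 in WT DMSO, 6.62 and 7.20 in WT TCDD, 7.39 and 6.98 in KO DMSO, and 7.46 and 7.39 in KO TCDD, with a difference of 0.27 (SE 0.16, adjusted p = 0.399). Eif2b2 and Eif2b4 differed by 0.24 and -0.13.

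The 4 eIF2 kinases shut initiation down under stress, and 0 were called. Eif2ak3, known as PERK, the kinase of the endoplasmic reticulum, stood at 7.75 and 7.98 in WT DMSO, 7.94 and 7.75 in WT TCDD, 7.63 and 7.13 in KO DMSO, and 7.29 and 7.50 in KO TCDD. The KO arrays were all below the WT arrays, and the difference was -0.47 (SE 0.12, adjusted p = 0.0763). Its further probe sets, dim at mean levels of 5.02 and 4.14, differed by 0.03 and -0.125, with KO and WT arrays overlapping. Eif2ak2, the kinase PKR that senses double-stranded RNA, stood at 5.73 and 5.59 in WT DMSO, 5.65 and 5.58 in WT TCDD, 5.61 and 5.82 in KO DMSO, and 5.71 and 5.62 in KO TCDD and differed by 0.05 (SE 0.08, adjusted p = 0.761). Eif2ak4, known as GCN2 and activated by amino acid shortage, stood at 4.93 and 5.22 in WT DMSO, 4.92 and 4.62 in WT TCDD, 5.25 and 4.69 in KO DMSO, and 4.88 and 4.96 in KO TCDD and differed by 0.02 (SE 0.15, adjusted p = 0.956). Eif2ak1 differed by -0.02. Eif2ak2 and Eif2ak4 were among 6 genes whose mean level was under the median of all probe sets, 6.13, with Eif2s3y, Eef2k, Eef1aknmt and Eif5b.

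**Figure D3:**
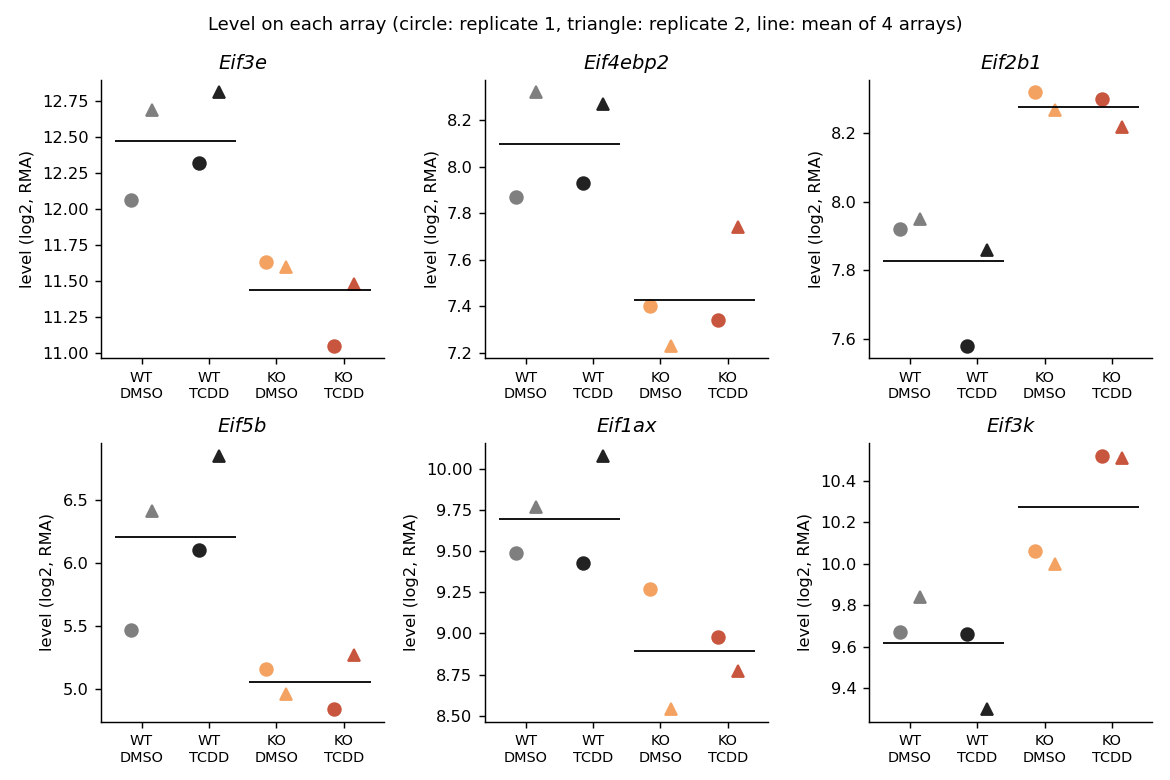
Level on each of the 8 arrays, in log2 units after RMA, for Eif3e, Eif4ebp2, Eif2b1, Eif5b, Eif1ax and Eif3k, by group (circles, replicate 1; triangles, replicate 2; lines, the mean of 4 arrays per genotype). The panels show only genes whose KO and WT arrays do not overlap, as in 6.28% of all genes with KO above and 6.71% with KO below. The vertical axes do not start at 0.

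The cap-binding complex and its helpers, 9 genes, had 0 calls, 4 positive and 5 negative differences. Both copies of the helicase eIF4A were measured. Eif4a1 stood at 10.17 and 10.09 in WT DMSO, 9.84 and 10.23 in WT TCDD, 11.03 and 10.23 in KO DMSO, and 10.65 and 10.56 in KO TCDD, and Eif4a2 at 10.76 and 11.37 in WT DMSO, 9.65 and 11.47 in WT TCDD, 10.70 and 10.07 in KO DMSO, and 9.96 and 9.48 in KO TCDD. The Eif4a1 difference was 0.54 (SE 0.17, adjusted p = 0.116), with WT and KO arrays touching at 10.23. The Eif4a2 difference was -0.76 (SE 0.41, adjusted p = 0.346), with WT TCDD replicate 1 below 3 of the KO arrays. Eif4b, which stimulates that helicase, stood at 9.77 and 10.51 in WT DMSO, 9.38 and 10.47 in WT TCDD, 9.55 and 9.45 in KO DMSO, and 8.86 and 9.37 in KO TCDD, with a difference of -0.73 (SE 0.27, adjusted p = 0.173). Its further probe sets, of mean level 8.61 and 8.12, did not share this direction, at 0.29 and 0.06 (adjusted p = 0.366 and 0.916). Eif4e, the cap-binding protein itself, stood at 7.34 and 7.66 in WT DMSO, 6.87 and 7.81 in WT TCDD, 7.47 and 7.38 in KO DMSO, and 6.98 and 7.03 in KO TCDD and differed by -0.21 (SE 0.21, adjusted p = 0.646). The other 5, Eif4e2, Eif4e3, Eif4g2, Eif4g3 and Eif4h, differed by -0.14 to 0.40.

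Of the 3 genes that restrain eIF4E, all had negative differences by their chosen probe sets and 1 fell. Eif4ebp2 stood at 7.87 and 8.32 in WT DMSO, 7.93 and 8.27 in WT TCDD, 7.40 and 7.23 in KO DMSO, and 7.34 and 7.74 in KO TCDD. The highest KO array, KO TCDD replicate 2, was below the lowest WT array, and the means were 7.43 ± 0.22 in KO and 8.10 ± 0.23 in WT (SD, n = 4). The difference was -0.67 (SE 0.14, adjusted p = 0.04997), a WT level 1.59-fold that of KO, and the call was lost whichever single array was left out, at -0.77 to -0.60 with adjusted p from 0.0520 to 0.138. A second Eif4ebp2 probe set differed by -0.67 without passing (adjusted p = 0.174), and the other 3 by 0.01 to 0.07. Eif4ebp1, the better known relative, stood at 7.29 and 7.16 in WT DMSO, 7.28 and 7.22 in WT TCDD, 7.13 and 7.19 in KO DMSO, and 7.24 and 7.26 in KO TCDD and differed by -0.03 (SE 0.07, adjusted p = 0.840). Its further probe sets had positive differences without passing. The one of mean level 6.58 differed by 0.345 (adjusted p = 0.160). The one of mean level 5.88 differed by 0.3575 (adjusted p = 0.0693), with all KO arrays above all WT arrays. Eif4enif1, which carries eIF4E into the nucleus, stood at 7.90 and 8.19 in WT DMSO, 8.17 and 8.45 in WT TCDD, 7.93 and 7.69 in KO DMSO, and 7.61 and 7.81 in KO TCDD, with a difference of -0.42 (SE 0.12, adjusted p = 0.108).

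Since Ahr binds DNA at a GCGTG core, promoters from RefSeq (GRCm38.p6, the 250 bases before the start) were read for that core on both strands. They are printed for Eif2b1 and Eif4ebp2, which passed the test, and for Eif5, whose further probe sets did. Lower case is used throughout, with matches to GCGTG or its reverse complement CACGC in capitals, and each reads 5′ to 3′ on the gene's own strand.
Eif2b1, chr5:124579132-124579381, minus strand: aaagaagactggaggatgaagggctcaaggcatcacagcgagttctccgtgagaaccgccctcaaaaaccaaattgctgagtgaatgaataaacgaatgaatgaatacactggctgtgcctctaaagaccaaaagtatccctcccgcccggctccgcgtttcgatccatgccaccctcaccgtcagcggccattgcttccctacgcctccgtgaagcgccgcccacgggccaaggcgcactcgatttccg
Eif4ebp2, chr10:61452670-61452919, minus strand: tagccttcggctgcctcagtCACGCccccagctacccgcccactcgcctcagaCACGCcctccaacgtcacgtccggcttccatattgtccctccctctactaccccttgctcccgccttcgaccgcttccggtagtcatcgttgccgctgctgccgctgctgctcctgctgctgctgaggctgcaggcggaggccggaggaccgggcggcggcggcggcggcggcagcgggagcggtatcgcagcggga
Eif5, chr12:111537851-111538100, plus strand: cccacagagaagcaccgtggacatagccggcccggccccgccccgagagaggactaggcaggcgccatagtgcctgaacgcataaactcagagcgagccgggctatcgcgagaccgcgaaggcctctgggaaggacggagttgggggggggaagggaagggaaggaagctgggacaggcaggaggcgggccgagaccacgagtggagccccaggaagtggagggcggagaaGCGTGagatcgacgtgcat
The Eif2b1 stretch held 0 matches, that of Eif4ebp2 held 2, with first bases at -230 and -197 from the start, and that of Eif5 held 1, at -19. The core was in 28.2% of 32851 promoters of all genes and in 47.4% of 57 promoters of 42 of the genes described here, whose median GC content was 61.2% against 52.4%. The longer form TNGCGTG, which contains the core, was in 4.1% of all promoters and 3.51% of these. A match describes the letters only, and no binding was measured. Of the 52 genes, 10 have no entry in the promoter table, Eif3e among them.

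The late factors, 3 genes, had 0 calls. Eif5b, the GTPase that joins the ribosomal subunits, stood at 5.47 and 6.41 in WT DMSO, 6.10 and 6.85 in WT TCDD, 5.16 and 4.96 in KO DMSO, and 4.84 and 5.27 in KO TCDD. All KO arrays were below all WT arrays, and the difference, -1.15 (SE 0.26, adjusted p = 0.0558), was the most negative of the 52 genes. Its mean level was under the median of all probe sets, and its other 2 probe sets differed by 0.11 and -0.29. Eif5a, the factor that carries hypusine and eases stalled elongation, stood at 11.70 and 11.45 in WT DMSO, 11.84 and 11.47 in WT TCDD, 12.03 and 11.86 in KO DMSO, and 11.62 and 12.10 in KO TCDD and differed by 0.29 (SE 0.13, adjusted p = 0.265). Eif6, which keeps the large subunit from joining early, stood at 9.85 and 9.51 in WT DMSO, 9.58 and 9.48 in WT TCDD, 9.74 and 9.42 in KO DMSO, and 10.03 and 9.62 in KO TCDD and differed by 0.10 (SE 0.14, adjusted p = 0.756).

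Elongation factors had 0 calls in KO against WT. Eef1a1, the abundant carrier of aminoacyl tRNA, stood at 13.24 and 13.47 in WT DMSO, 12.98 and 13.87 in WT TCDD, 13.52 and 12.99 in KO DMSO, and 12.93 and 12.91 in KO TCDD, with a difference of -0.30 (SE 0.21, adjusted p = 0.463). Eef1d, part of the complex that recharges it, stood at 9.96 and 10.20 in WT DMSO, 9.71 and 10.53 in WT TCDD, 10.59 and 10.29 in KO DMSO, and 11.08 and 10.48 in KO TCDD, with a difference of 0.51 (SE 0.21, adjusted p = 0.216). Eef1e1, a partner of the tRNA synthetase complex, stood at 7.95 and 8.75 in WT DMSO, 6.56 and 8.51 in WT TCDD, 8.12 and 7.30 in KO DMSO, and 6.98 and 7.20 in KO TCDD. Its WT arrays spanned 6.56 to 8.75, beyond the KO range at both ends, and the difference was -0.54 (SE 0.46, adjusted p = 0.570). Eef1a2 and Eef1b2 differed by -0.30 and 0.00.

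Eef2, the translocase, stood at 11.24 and 11.32 in WT DMSO, 10.44 and 11.44 in WT TCDD, 11.55 and 11.50 in KO DMSO, and 11.39 and 11.54 in KO TCDD. The KO arrays spanned 11.39 to 11.55, WT TCDD replicate 1 was the lowest of the 8, and the difference was 0.39 (SE 0.20, adjusted p = 0.328). Eef2k, the kinase that inhibits it, stood at 5.17 and 4.61 in WT DMSO, 5.08 and 4.56 in WT TCDD, 4.98 and 5.01 in KO DMSO, and 5.05 and 5.20 in KO TCDD, with a difference of 0.21 (SE 0.15, adjusted p = 0.495). The 3 methyltransferase genes differed by 0.13 to 0.16 and 0 were called. Eef2kmt, which modifies eEF2, stood at 6.67 and 6.63 in WT DMSO, 6.57 and 6.53 in WT TCDD, 6.61 and 6.80 in KO DMSO, and 6.87 and 6.73 in KO TCDD, with a difference of 0.15 (SE 0.08, adjusted p = 0.325). Eef1akmt1, which modifies eEF1A, stood at 7.33 and 7.32 in WT DMSO, 7.45 and 7.51 in WT TCDD, 7.56 and 7.29 in KO DMSO, and 7.74 and 7.67 in KO TCDD, with a difference of 0.16 (SE 0.11, adjusted p = 0.452).

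The genes lowest in KO also differed between the WT duplicates. Of the 52 genes, 11 were more than 0.5 lower in KO, namely Eif5b, Eif3e, Eif2s2, Eif1ax, Eif3m, Eif1b, Eif4a2, Eif4b, Eif4ebp2, Eif3a and Eef1e1. Over all genes, 8.00% were more than 0.5 lower. In all 11, the WT array numbered 2 was above the WT array numbered 1 in both treatments, by a median of 0.74 in DMSO and 0.91 in TCDD. The same held for 80.4% of all genes more than 0.5 lower in KO and for 24.1% of all genes. Eif3m was the widest, at 7.40 and 8.75 in WT DMSO and 6.12 and 9.58 in WT TCDD. Of the 52 genes, 3 were more than 0.5 higher in KO, Eif3k, Eif4a1 and Eef1d, beside 4.57% of all genes.

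A common check of RNA and amplification quality moved with the same arrays. The gap between the 3′ and 5′ control probe sets for beta-actin was 2.90 and 3.30 on the WT arrays numbered 2, 3.70 and 4.56 on those numbered 1, and 3.48 to 3.82 on the KO arrays. With this gap as a covariate, 7 genes were called, 1 higher (Eif2b1) and 6 lower (Eif1ax, Eif2s2, Eif3e, Eif4b, Eif4ebp2 and Eif5b), beside 9.13% of all genes. Without both WT arrays numbered 2, 0 genes were called, beside 0.137% of all genes. In that setting Eif3e was at -0.75, Eif5b at -0.73, Eif1ax at -0.57, Eif4ebp2 at -0.47, Eif2b1 at 0.53 and the Eif5 probe set of mean level 8.88 at -1.18. Eif3m and Eef1e1 changed sign there, to 0.42 and 0.15, and Eif4a2 and Eif1b came to -0.15 and -0.07.

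**Figure D4:**
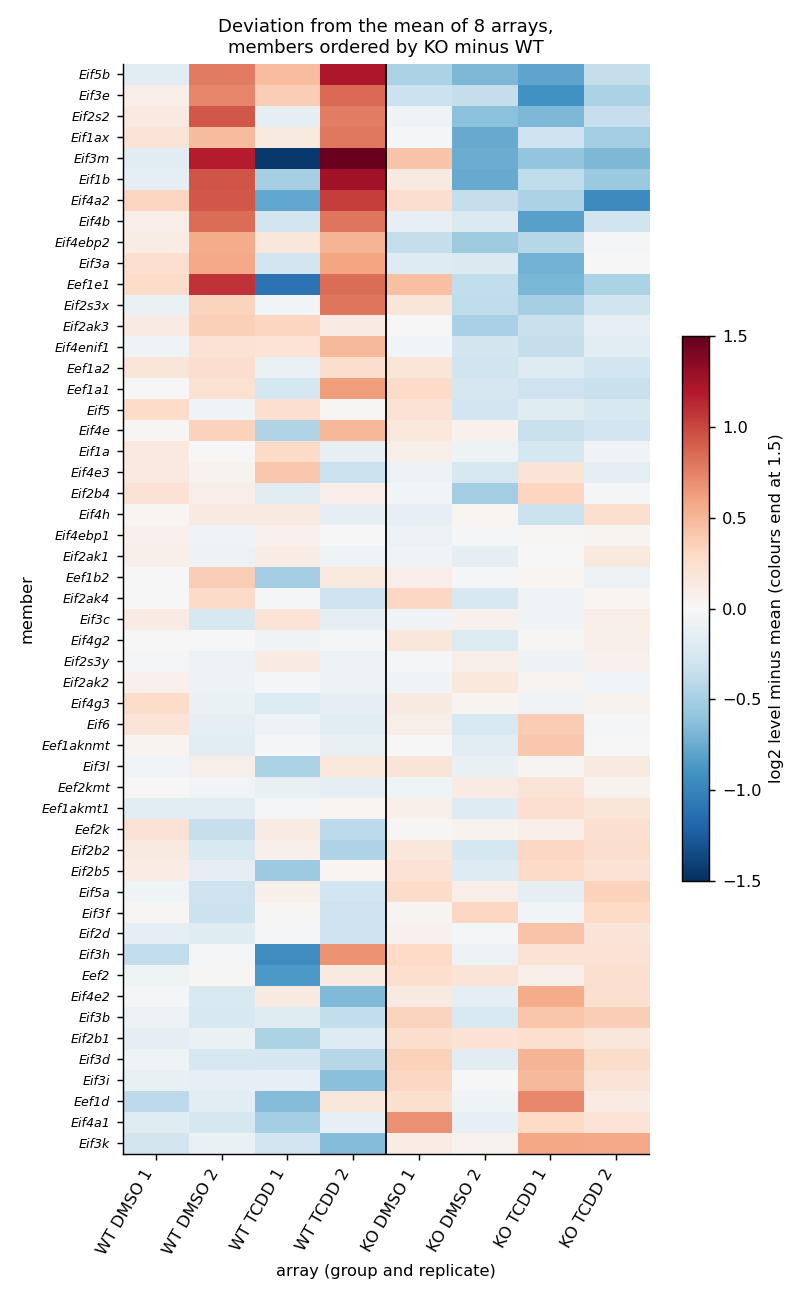
Deviation of each of the 52 genes from its own mean over the 8 arrays, in log2 units (red above, blue below, colours end at 1.5), with genes ordered by KO minus WT and WT arrays left of the line. In the upper rows the WT arrays numbered 2 are the reddest, and Eif3m runs from 6.12 to 9.58 between the WT TCDD arrays.

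Within each treatment, the test compares 2 arrays with 2 and has less power. In DMSO 0 of the 52 genes were called, beside 0.00% of all genes, and 4 had an unadjusted p under 0.05, beside 10.9%. In TCDD 0 were called, beside 0.0726% of all genes, and 13 had an unadjusted p under 0.05, or 25%, beside 12.9%. Eif3e differed by -0.76 in DMSO and by -1.30 in TCDD, with adjusted p of 0.451 and 0.143. Eif2b1 was higher by 0.36 and 0.54, and Eif4ebp2 differed by -0.78 and -0.56. Eif3k differed by 0.28 in DMSO and 1.04 in TCDD, the latter with the lowest adjusted p of the 52 genes in that comparison, 0.0784. Since all use the same arrays as the pooled comparison, these are not independent of it.

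No response of the 52 genes to TCDD passed the test in limma. In WT 0 genes were called, beside 0.00% of all genes, and 0 of the 52 had an unadjusted p under 0.05, beside 2.99%. Eif3k, Eif4g3, Eif2b1, Eef1b2 and Eif2ak4 had the lowest unadjusted p among negative TCDD minus DMSO differences, at -0.28, -0.27, -0.22, -0.38 and -0.31. Among positive ones they were Eif4enif1, Eif5b, Eef1akmt1, Eif2s3x and Eif3e, at 0.27, 0.54, 0.16, 0.27 and 0.19. The 95% interval for Eif5b, -0.36 to 1.43, shows the precision that 2 arrays a group give. Over the 52 genes the median was -0.08, with 33 negative, beside a median of 0.03 over all genes.

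In the arrays labelled KO, 0 of the 52 genes were called after TCDD (0.00% of all genes), and 1, Eif3k, had an unadjusted p under 0.05, beside 1.94%. Eif3k was higher by 0.49 on TCDD (95% interval 0.13 to 0.84, unadjusted p = 0.0146 and adjusted p = 0.9997 in limma). The next positive differences by p were those of Eef1akmt1 (0.28), Eif2b4 (0.44), Eif2d (0.30) and Eif3b (0.34). The negative ones were Eif4e (-0.42), Eif3e (-0.35), Eif4a2 (-0.67), Eef1a1 (-0.34) and Eef1e1 (-0.62). The median was -0.02, with 25 positive.

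**Figure D5:**
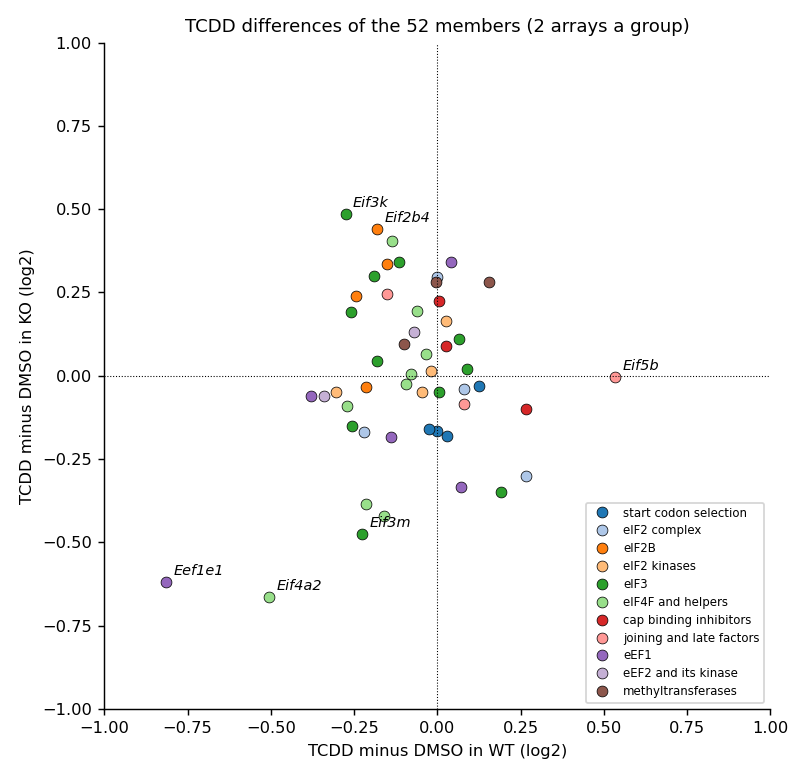
TCDD minus DMSO difference in WT (horizontal axis, log2) against that in KO (vertical axis, log2) for the 52 genes, coloured by role, with 2 arrays per group. Eif3k lies at -0.28 in WT and 0.49 in KO, and 0 of the 52 genes were called in either genotype.

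The difference between the TCDD effects of the genotypes was tested as an interaction, and again 0 of the 52 genes were called (0.00% of all genes). Eif3k alone had an unadjusted p under 0.05, beside 2.99% of all genes. Its TCDD difference was 0.76 higher in KO than in WT (95% interval 0.26 to 1.26, unadjusted p = 0.00921 and adjusted p = 0.998 in limma). Leaving out single arrays gave 0.58 to 0.94. The next positive values by unadjusted p were Eif2b4 at 0.62, Eif3d at 0.49, Eif3b at 0.46 and Eif3i at 0.45. The median over the 11 eIF3 genes was 0.11, beside 0.10 over all 52. The negative ones, also by p, were Eif4enif1 at -0.37, Eif3e at -0.54, Eif2s3x at -0.57, Eif5b at -0.54 and Eef1a1 at -0.41.

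Other genes of the pathway, from fixed lists, gave few calls in KO against WT. Of 12 measured genes for release, recycling and mRNA binding 0 were called, with a median of -0.35 and 1 positive, Pabpc1. Pabpc1, the poly(A)-binding protein, differed by 0.52 (adjusted p = 0.179). Of 11 measured genes of the kinase signalling that reaches initiation, 1 rose and 1 fell, beside 3.24% of all genes called. Ppp1ca, a catalytic subunit of protein phosphatase with many other targets, stood at 9.73 and 9.61 in WT DMSO, 9.08 and 9.31 in WT TCDD, 10.48 and 9.96 in KO DMSO, and 10.98 and 10.56 in KO TCDD and differed by 1.06 (SE 0.22, adjusted p = 0.0454). Ppp1r15b, which directs that phosphatase to eIF2, stood at 8.54 and 8.70 in WT DMSO, 8.50 and 8.96 in WT TCDD, 8.27 and 8.07 in KO DMSO, and 7.92 and 8.16 in KO TCDD and differed by -0.57 (SE 0.12, adjusted p = 0.0482). Neither gene's KO and WT arrays overlapped. Ppp1r15a, the stress-induced partner that also directs the phosphatase to eIF2, differed by 1.10 without passing (adjusted p = 0.0981). Its WT duplicates lay apart, at 10.59 and 8.97 in DMSO and 9.80 and 9.23 in TCDD. Mtor, the kinase upstream of the eIF4E-binding proteins, differed by 0.07 (adjusted p = 0.804).

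Of 11 transcripts known to increase when eIF2 is phosphorylated, 0 were called, with a median of 0.09. Atf4, the transcription factor made under that condition, differed by 0.59 (adjusted p = 0.140), and its target Ddit3 by 0.64 (adjusted p = 0.443). For Ddit3 the WT arrays numbered 1, at 9.02 and 8.83, lay within the KO range of 8.34 to 9.27. Those numbered 2 were at 7.46 and 7.24. The hypusine enzymes Dhps and Dohh, which modify eIF5A, differed by 0.65 and 0.38, and 0 of these 2 were called. Of 16 measured cytosolic tRNA synthetase genes 0 were called, with 8 positive differences and a median of 0.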

How the data were processed

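Affymetrix MOE430A arrays of 8 pooled samples were analysed, 2 per group. The deposited log2 expression values were made by the authors with RMA (affy package), as the submitters' processing notes list. The sources used here give no versions and no probe positions. RMA equalises array distributions, so differences are relative to the rest of the array. The number of arrays and the spread between duplicates limit the precision.

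The table held 22690 probe sets. After removal of 64 Affymetrix controls 22626 remained, of which 20380 had 1 gene symbol, 691 several and 1555 none in GEO's platform annotation. All 52 genes matched RefSeq by Entrez identifier. limma 3.58.1 in R 4.3.3 (lmFit, eBayes; checked on simulated data) gave KO against WT over all 8 arrays, as in the study's design text, and the other contrasts from a fit of the 4 groups. All p-values were adjusted by Benjamini-Hochberg over all probe sets.

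Genes given with every array's value were those called, the 2 with the largest KO against WT difference in each role, and a fixed list of well-known factors; for TCDD, up to 5 per direction by p. Members and lists were chosen with earlier results of these data known. Alternatives changed the normalization, filter, variance model, block, probe set choice, threshold and arrays used.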

Additional observations from a re-analysis of the deposited data

Results flagged for a closer look

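Single arrays stood apart from the other 3 of their genotype in 5 of the 78 groups of 4 arrays that were looked at; chance flags about 1 in 20 such groups. Eef1a1 stood at 13.52 on KO DMSO replicate 1, where the next KO array was at 12.99. Eif3m stood at 8.00 on the same array, with the next at 6.98. On KO DMSO replicate 2, Eif2b5 stood at 6.98, with the next KO array at 7.39, and Eif3b at 8.55, with the next at 9.12. Eif3i stood at 10.60 on WT TCDD replicate 2, with the next WT array at 11.11. The cause was not tested.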

How the results depend on the processing

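The KO against WT count of 3 called genes (1 higher, 2 lower) depended on the processing, and in each case the cause was not tested. The share of all genes called, 3.24% as reported, moved with it and follows each count. It was 7 (4 higher; 5.13%) after a further quantile normalization, 1 (0 higher, 1 lower; 2.82%) after median centring, and 5 (2 higher; 7.89%) of 46 genes with dim probe sets left out. It was 2 (0 higher; 2.43%) with trend and robust eBayes, 8 (6 higher; 8.13%) with array weights, and 4 (4.21%; Eif2b1, Eif2s2, Eif3e and Eif5) with probe sets averaged. It was 0, with 0 higher and 0 lower, in the model of 4 group means (0.807%) and with genotype and treatment as additive terms (0.960%). It was also 0 in the DMSO arrays alone (0.00%), in the TCDD arrays alone (0.00%) and without both WT arrays numbered 2 (0.137%). With the actin gap as a covariate it was 7 (6 lower; 9.13%). At an adjusted p under 0.10 it was 7 (2 higher, 5 lower, 8.82%) and under 0.01 it was 0 (0.250%). Without single arrays it was 0 to 2 (0.541% to 3.22%), with 0 to 2 higher and 0 to 2 lower. It was 0 without KO TCDD replicate 1, KO TCDD replicate 2, WT DMSO replicate 2 or WT TCDD replicate 2. Calls over all genes fell in those settings too, from 401 to between 67 and 74. No TCDD or interaction call appeared in any alternative.

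The replicate numbers were not taken as pairing the arrays, since the correlation of duplicate deviations was not over 0.1 in every pair of groups. It was -0.29 to 0.63 over 6 pairs, 4 of them over 0.1, with 0.63 between WT DMSO and WT TCDD. With the number as a replicate block, 3 genes were called, Eif3e, Eif4ebp2 and Eif5b, 0 higher (4.03% of all genes), and Eif2b1 was not (adjusted p = 0.0515).

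Over 21 alternatives Eif3e kept its direction in all and its call in 11 (-1.30 to -0.75), Eif2b1 in 6 (0.36 to 0.54) and Eif4ebp2 in 4 (-0.78 to -0.25). The Eif5 probe set of mean level 8.88 kept its call in 17 of 20. Signs changed only for differences that had not passed. With array weights these were Eif2ak2 (-0.012) and Eif3c (-0.026); with the mean of all probe sets Eif2ak2 (-0.035), Eif3h (-0.012) and Eif4ebp1 (0.22); in DMSO alone Eif2ak4 (-0.11) and Eif6 (-0.10); in TCDD alone Eif2s3y (-0.025) and Eif3c (-0.01). Without both WT arrays numbered 2 they were Eef1e1 (0.15), Eef2k (-0.065), Eif2s3y (-0.035), Eif3c (-0.15), Eif3m (0.42), Eif4e (0.11) and Eif6 (-0.0125). Without single arrays Eif2ak4 ranged from -0.079 to 0.12, Eif3c from -0.05 to 0.10, Eif3l from -0.0042 to 0.21 and Eif6 from -0.012 to 0.19.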
